A study of Mus musculus with 27 samples.

Results

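The genes described here are imprinted genes that lie outside the Igf2 locus. They were chosen as a list of 40 mouse symbols of known imprinted genes, with Igf2, H19 and Igf2r left out, and no measured value is part of the rule. Of the 40 symbols, 36 were matched to one of the 52636 gene identifiers in the count tables, and Rian, Mirg, Kcnq1ot1 and Peg13 were not matched and are not analysed here. RNA was sequenced from the frontal cortex of 6 wild-type (WT) and 6 Igf2enh-/- (KO) mice, and from the striatum of 7 WT and 8 KO mice. All mice were adults of about 2.5 months on the 129S1 background. The KO mice carried a homozygous deletion of a 4.9 kb fragment between H19 and Igf2, with 1 loxP site left at the deletion. Each frontal cortex group held 3 females and 3 males, the WT striatum group 3 females and 4 males, and the KO striatum group 4 of each sex. The labels do not tie a striatal library to a frontal cortex library of the same mouse, so libraries were treated as independent, and p-values measure the spread between these libraries. Libraries are named by their number in the labels, 1 to 12 for frontal cortex and 13 to 27 for striatum.

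An imprinted gene is transcribed mainly from the allele inherited from one parent, and the choice is set by DNA methylation laid down in the egg or the sperm at an imprinting control region. Such genes lie in clusters in which paternally and maternally expressed genes, and often a long non-coding RNA, are governed by one control region. Many are known for roles in fetal growth, in hypothalamic function and in neuronal development, and the imprint of several differs between tissues, as for Ube3a, which is imprinted in neurons, and Grb10, whose RNA comes from the paternal allele in neurons and from the maternal allele elsewhere. The mice were inbred and the counts hold no information on the allele, so total RNA of each gene was measured here and parental origin was not.

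The start regions of 4 genes are shown as examples. Usp29 faces Peg3 across a shared start region, and Nnat lies inside an intron of Blcap. Slc22a3 and Dlk1 differed widely in level between the regions. The gene spans given in the text are those of RefSeq in the same build. Each sequence runs from 250 bases before to 50 bases after the transcript start that the RefSeq promoter table (GRCm38.p6) uses, which can lie inside the gene span, as it does for Dlk1, 5′ to 3′ on the strand of the gene, with the CpG dinucleotides, the sites of DNA methylation, in capitals.
Usp29 (chr7:6730333-6730632, plus strand): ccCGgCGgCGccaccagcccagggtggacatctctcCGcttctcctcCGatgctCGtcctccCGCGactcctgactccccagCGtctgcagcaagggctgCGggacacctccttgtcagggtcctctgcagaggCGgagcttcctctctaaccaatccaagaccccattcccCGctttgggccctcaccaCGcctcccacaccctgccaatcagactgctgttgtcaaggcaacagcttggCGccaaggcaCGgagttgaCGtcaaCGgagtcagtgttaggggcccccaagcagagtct
Nnat (chr2:157559828-157560127, plus strand): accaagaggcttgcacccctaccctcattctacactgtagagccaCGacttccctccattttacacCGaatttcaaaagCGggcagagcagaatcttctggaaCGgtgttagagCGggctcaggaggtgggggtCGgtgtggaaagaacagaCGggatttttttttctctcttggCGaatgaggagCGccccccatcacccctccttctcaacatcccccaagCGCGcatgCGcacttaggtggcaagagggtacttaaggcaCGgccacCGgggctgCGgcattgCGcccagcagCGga
Dlk1 (chr12:109452573-109452872, plus strand): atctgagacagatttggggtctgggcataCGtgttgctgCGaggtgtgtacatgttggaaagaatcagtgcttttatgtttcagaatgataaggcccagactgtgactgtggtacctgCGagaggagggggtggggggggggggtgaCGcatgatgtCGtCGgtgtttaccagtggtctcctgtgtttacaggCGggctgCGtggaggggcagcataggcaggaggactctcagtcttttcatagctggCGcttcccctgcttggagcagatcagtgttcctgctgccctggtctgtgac
Slc22a3 (chr17:12507655-12507954, minus strand): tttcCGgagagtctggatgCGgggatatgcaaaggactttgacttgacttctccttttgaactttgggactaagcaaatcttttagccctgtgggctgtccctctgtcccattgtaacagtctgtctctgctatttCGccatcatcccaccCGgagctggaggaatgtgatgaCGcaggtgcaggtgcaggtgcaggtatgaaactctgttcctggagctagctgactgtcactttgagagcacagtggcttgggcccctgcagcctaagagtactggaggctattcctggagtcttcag
The windows hold 17 CpG in Usp29, 17 in Nnat, 9 in Dlk1 and 5 in Slc22a3. The window of Peg3, on the other strand, shares 263 of its 300 bases with that of Usp29 and holds 13 CpG. Over the 44 windows of the 30 imprinted genes found in the table the median was 15.5 CpG, and over all 32851 windows it was 7. Methylation was not measured in these libraries.

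The tissue labels were checked against marker genes. Levels are given in CPM, counts scaled to a library total of 1000000. The summed level of 10 medium spiny neuron genes was 3825 to 10569 CPM in striatum and 178 to 259 CPM in frontal cortex, and that of 8 cortical projection neuron genes was 2348 to 2591 CPM in frontal cortex and 22.1 to 1171 CPM in striatum. Several libraries stood apart from their group. In striatum, library 19 (KO male) and library 26 (WT male) held Zic1, a transcription factor of septal and other medial brain regions, at 122 and 91 CPM against 14.3 to 30.1 CPM in the other 13 libraries. Zic1 made up most of the summed level of the 12 hypothalamic and septal genes checked. This sum was 128 and 94.9 CPM in these libraries and 17.3 to 33.8 CPM in the others. The hypothalamic genes Hcrt and Sim1 had 3 counts or fewer in every striatal library. Pomc, of the same list, was at 2.61 CPM in library 19, 0.729 CPM in library 26 and at most 1.77 CPM in the others. Zic1 was not the only marker to stand apart. Sp8, of the olfactory bulb list, was at 9.76 and 8.45 CPM in libraries 19 and 26 against at most 2.45 CPM. Ttr, of the choroid plexus list, was at 106 CPM in library 19 and 3049.8 CPM in library 15, against at most 35.0 CPM. Library 20 (WT male) had the highest cortical sum. It also had the lowest medium spiny neuron sum (3825 CPM) and the highest oligodendrocyte (10568 CPM) and astrocyte sums (4953 CPM) of the striatal libraries. Library 15 (KO female) had a summed level of 12 choroid plexus genes of 4688 CPM against 172 to 369.6 CPM in the others. In frontal cortex, library 1 (KO female) had the lowest oligodendrocyte sum (981 CPM against 1478 to 2093 CPM) and Zic1 at 38.8 CPM against 15.0 to 20.5 CPM in the other KO libraries, and library 9 (KO male) had the highest olfactory bulb sum (91.1 CPM against 22.2 to 39 CPM). Their part in the results below was not tested. Fewer cells of a type and less RNA per cell cannot be told apart in such bulk tissue. Values without these libraries are given where they change a result. Totals ran from 23686945 to 33926904 counts per library, so that 1 CPM stood for 23.7 to 33.9 counts.

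The imprinted genes covered a wide range of levels, which are compared between genes as CPM per kilobase of annotated exon. Meg3, a maternally expressed long non-coding RNA, was the highest by far, with group means of 327 to 347 CPM per kb. It was followed by Nap1l5, a nucleosome assembly protein gene inside an intron of Herc3, at 181 CPM per kb in WT frontal cortex and 123 in WT striatum. Next came Ndn (necdin, a MAGE family protein of postmitotic neurons), Impact (a regulator of translation), Rasgrf1 (a guanine nucleotide exchange factor for Ras) and Gnas (the stimulatory G protein alpha subunit), each at 45.2 to 102 CPM per kb. Peg3, Ube3a, Zrsr1, Blcap and Copg2 lay between 15.5 and 32.4 CPM per kb in every group. Snrpn, a spliceosomal protein gene that overlaps Snurf and Snhg14 in RefSeq, was at 4.14 to 4.9 CPM per kb, and reads of such overlapping genes may be split or dropped by the counting, whose strand setting is not given in the sources used here.

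**Figure D1:**
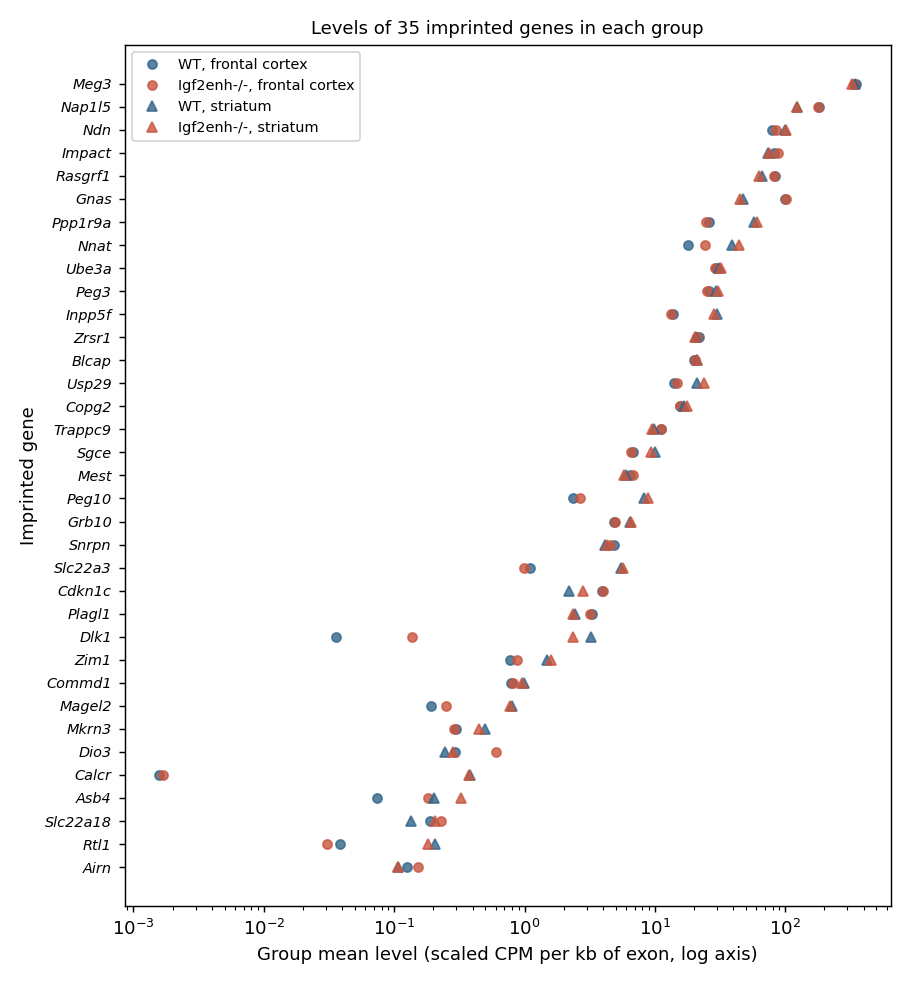
Group mean level of 35 imprinted genes in scaled CPM per kilobase of exon, on a log axis, with circles for frontal cortex, triangles for striatum, blue for wild type and red for Igf2enh-/-. Circles and triangles lie apart for Calcr, Dlk1, Slc22a3 and Peg10, while blue and red symbols of a region mostly overlap; Phlda2, with 3 counts in all, is not drawn.

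In WT mice, striatum was compared with frontal cortex in 26 of the 36 genes, those with at least 1 CPM in all 13 WT libraries. Of these, 19 were called at an adjusted p under 0.05 (edgeR's quasi-likelihood test, Benjamini-Hochberg over all genes tested), 12 higher and 7 lower in striatum. Across all 13554 genes tested, 65.4% were called, 33.8% as higher and 31.6% as lower in striatum, so the share of imprinted genes called was near that of all genes. The groups did not overlap for 11 of the 26 imprinted genes, against 37.8% of all genes tested. The median absolute log2 fold change was 0.381 over the 26 genes and 0.236 over all genes. In KO mice, whose libraries the first comparison did not use, 20 of 26 were called (14 higher, 6 lower), against 68.1% of all genes (34.0% higher, 34.1% lower). Of the 26, 17 were called in both genotypes, all 17 in the same direction. The share of all genes called in both was not computed, so this overlap is not read as particular to imprinted genes. Marker genes of other cell types also differed between the regions in WT mice, among them all 8 oligodendrocyte genes, which were called as higher in striatum (median log2 fold change 1.864), and all 9 tested meningeal fibroblast genes, which were called as lower (median -1.315), and their part in the differences of the imprinted genes was not tested.

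**Figure D2:**
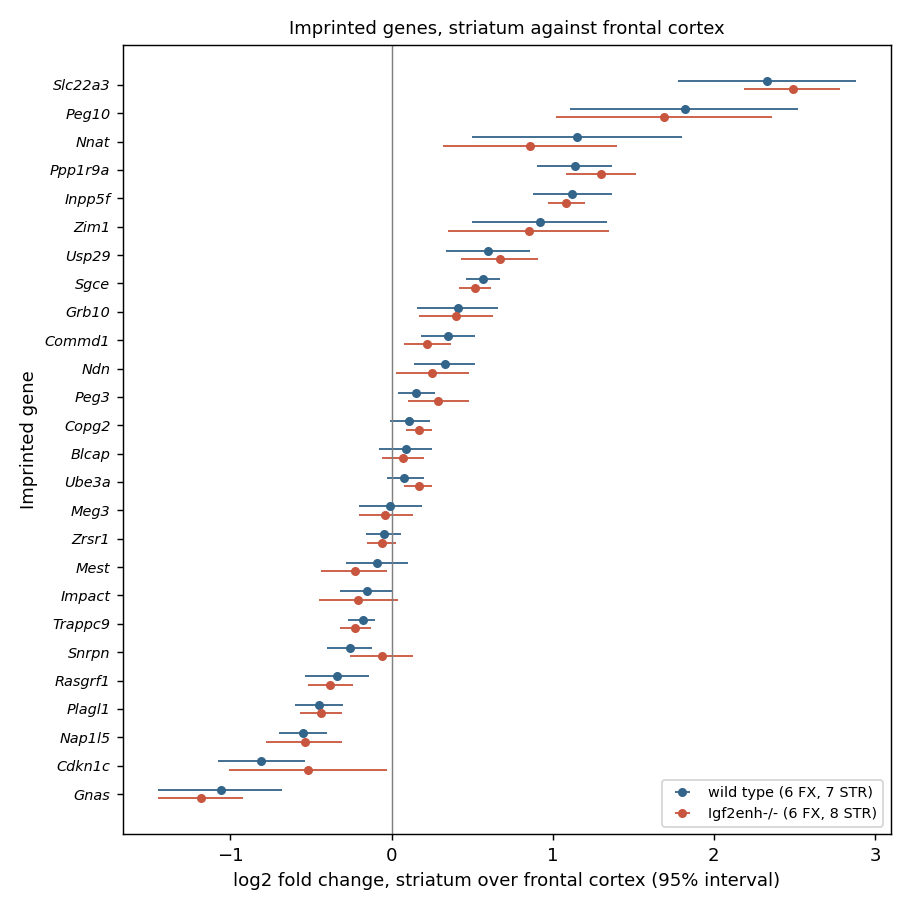
Log2 fold change of 26 imprinted genes, striatum over frontal cortex, with 95% intervals, in wild-type (blue) and Igf2enh-/- mice (red). Slc22a3, Peg10, Nnat, Ppp1r9a and Inpp5f lie to the right of 0 and Gnas, Cdkn1c, Nap1l5 and Plagl1 to the left in wild-type mice, and the intervals of the genotypes overlap for each gene.

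The largest difference among the tested genes was that of Slc22a3 (chr17:12419972-12507704), which encodes the organic cation transporter 3, a low-affinity carrier of monoamines. Its level was 2.81 to 5.44 CPM (median 3.72) in WT frontal cortex and 9.76 to 27.6 CPM (median 18.6) in WT striatum. In KO mice it was 2.79 to 4.35 CPM and 13.1 to 26.1 CPM. No striatal library reached down to the cortical range in either genotype. The log2 fold change was 2.33 (SE 0.254, adjusted p = 6.04e-06) in WT and 2.49 (SE 0.138, adjusted p = 1.37e-09) in KO mice. Within striatum it was lowest in library 20 and highest in library 22, the WT libraries with the highest and the lowest cortical sum. Among WT striatal libraries these 2 also had the lowest and the highest medium spiny neuron sum (3825 and 10437 CPM). The part of these sums in the level of Slc22a3 was not tested.

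In the chromosome 6 Peg10 cluster, all 3 tested genes were higher in striatum. Peg10 (chr6:4747306-4760517), a gene derived from a retrotransposon, was at 14.3 to 17.6 CPM (median 15.5) in WT frontal cortex and 21.6 to 95.1 CPM (median 55.1) in WT striatum, without overlap, and at 15.5 to 21.3 and 25.5 to 150.4 CPM in KO mice. Its log2 fold change was 1.82 (SE 0.327, adjusted p = 0.00032) in WT and 1.69 (SE 0.313, adjusted p = 0.000209) in KO mice. Sgce, which encodes epsilon-sarcoglycan, the protein lost in myoclonus dystonia, lies 101 bases from Peg10 and is transcribed in the opposite direction. It rose less, with 19.5 to 22.9 CPM (median 20.4) in WT frontal cortex and 28.3 to 34.5 CPM (median 30) in WT striatum, and differed by 0.57 (SE 0.047, adjusted p = 7.5e-07) on the log2 scale. Ppp1r9a (chr6:4902872-5165661), which encodes the actin-binding synaptic protein neurabin, was at 278 to 326 CPM (median 303) in WT frontal cortex and 446 to 767 CPM (median 692) in WT striatum, and no library of one region reached the other. Its log2 fold changes were 1.14 (SE 0.109) in WT and 1.30 (SE 0.103) in KO mice.

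Inpp5f and Nnat also differed by more than 1 on the log2 scale in WT mice. Inpp5f (chr7:128611181-128696436), an inositol polyphosphate 5-phosphatase family gene with an imprinted short transcript in brain, was at 110.2 to 118 CPM (median 115) in WT frontal cortex and 165 to 297 CPM (median 263) in WT striatum. These ranges did not overlap, and the log2 fold change was 1.12 (SE 0.113, adjusted p = 3.09e-06) in WT and 1.08 (SE 0.0537, adjusted p = 4.45e-10) in KO mice. Imprinted and other transcripts of Inpp5f are not separated in gene counts. Nnat (chr2:157560078-157562525), the paternally expressed neuronatin, a small proteolipid of the endoplasmic reticulum, was at 27.1 to 50.5 CPM (median 29.7) and 29.2 to 118 CPM (median 82.1), so that the regions overlapped. Its log2 fold change was 1.15 (SE 0.301, adjusted p = 0.00457) in WT and 0.86 (SE 0.253, adjusted p = 0.00716) in KO mice. Blcap, the host gene around Nnat on the other strand, was not called, with 0.09 (95% interval -0.08 to 0.25, adjusted p = 0.349) in WT and 0.07 (95% interval -0.06 to 0.20, adjusted p = 0.347) in KO mice.

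In the chromosome 7 Peg3 cluster, Usp29 and Zim1 rose by more than Peg3. Usp29, a ubiquitin-specific protease gene, was at 32.3 to 39.1 CPM (median 37.5) and 38.3 to 73.1 CPM (median 54.2), with 1 WT striatal library, library 20, inside the cortical range. Its log2 fold changes were 0.60 in WT and 0.67 in KO mice (adjusted p = 0.000683 and 7.47e-05). Peg3, a paternally expressed zinc finger gene whose start window overlaps that of Usp29 above, differed by 0.15 and 0.29 (adjusted p = 0.02 and 0.00908), and in WT mice its call was lost when library 10 or library 18 was left out (adjusted p up to 0.0637). Zim1, the maternally expressed zinc finger gene beside Peg3, was at 2.21 to 3.61 CPM (median 2.8) in WT frontal cortex and at 3.64 to 8.89 CPM (median 4.75) in WT striatum, with log2 fold changes of 0.92 and 0.85 (adjusted p = 0.00106 and 0.00471).

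Genes lower in striatum included Gnas (chr2:174284320-174346744), at 1077 to 1154 CPM (median 1106) in WT frontal cortex and 358 to 773 CPM (median 528) in WT striatum. The cortical libraries lay within a narrow band and the striatal ones spread widely below it. The log2 fold change was -1.06 (SE 0.179, adjusted p = 0.000184) in WT and -1.18 (SE 0.126, adjusted p = 8.25e-07) in KO mice, and the imprinted transcripts of this locus are not separated in gene counts. Cdkn1c (chr7:143458339-143461059), the maternally expressed cyclin-dependent kinase inhibitor p57, was at 6.5 to 8.51 CPM (median 7.68) and 2.68 to 5.41 CPM (median 4.45) without overlap, a log2 fold change of -0.81 (SE 0.126, adjusted p = 0.000102). In KO mice the difference was -0.52 (SE 0.228, adjusted p = 0.0562), and -0.68 (adjusted p = 0.00103) without the 4 KO libraries that stood apart, of which library 15 held Cdkn1c at 12 CPM. Nap1l5 (-0.55 in WT, -0.54 in KO), Plagl1, a zinc finger transcription factor (-0.45, -0.44), Rasgrf1 (-0.34, -0.38) and Trappc9, a trafficking complex subunit (-0.18, -0.23), were called as lower in striatum in both genotypes on the log2 scale.

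Smaller rises were called in both genotypes for Grb10, an adaptor of the insulin and IGF receptors (0.41 in WT, 0.40 in KO), Commd1, a copper homeostasis gene (0.35, 0.22), and Ndn (0.33, 0.25). The KO call of Ndn was lost in 7 of the 14 fits that left out 1 library (adjusted p up to 0.106). Snrpn was called as lower in WT mice (-0.26, SE 0.0659, adjusted p = 0.00351) and not in KO mice (-0.06, 95% interval -0.26 to 0.13, adjusted p = 0.554). The 7 genes not called in WT mice were Copg2 (coatomer subunit), Impact, Ube3a (ubiquitin ligase), Blcap, Mest (an alpha/beta hydrolase family gene), Zrsr1 (a splicing factor retrogene in an intron of Commd1) and Meg3. Of these, Ube3a, Copg2 and Mest were called in KO mice at log2 fold changes of 0.17, 0.17 and -0.23. The call of Mest was lost in 10 of the 14 fits that left out 1 library (adjusted p up to 0.12). Meg3 was at 5919 to 6535 CPM (median 6373) in WT frontal cortex and 5066 to 7709 CPM (median 6161) in WT striatum. Its ranges overlapped, and its log2 fold change was -0.01 (95% interval -0.20 to 0.19, adjusted p = 0.959) in WT and -0.04 (95% interval -0.20 to 0.13, adjusted p = 0.694) in KO mice. The interval of Zrsr1 was -0.16 to 0.06 in WT mice and that of Mest -0.28 to 0.10. With the RNA integrity number as a term, 10 of 26 genes were called in WT mice (27.6% of all genes) and 18 of 26 in KO mice (58.6%). The 9 genes no longer called in WT mice kept their sign, with log2 fold changes in that fit of Gnas (-0.49), Cdkn1c (-0.64), Plagl1 (-0.21), Rasgrf1 (-0.12), Trappc9 (-0.16), Snrpn (-0.11), Grb10 (0.51), Ndn (0.39) and Commd1 (0.20), so that the estimate was smaller for 7 of them and larger for Grb10 and Ndn. The genes no longer called in KO mice were Commd1 (0.11) and Mest (-0.19).

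The other 10 genes had a library under 1 CPM in both regional comparisons and were fitted without the filter on low counts, where 32.7% of all genes were called between the regions in WT and 35.0% in KO mice. The largest of all differences were among them. Dlk1 (chr12:109452485-109463336), a paternally expressed transmembrane protein of the Notch ligand family, had 3 to 7 counts per library in WT frontal cortex and 57 to 1403 in WT striatum, where its level was 2.09 to 40.9 CPM (median 17.8). Every striatal library lay above every WT cortical one, and the log2 fold change in WT mice was 6.47 (SE 0.803, adjusted p = 5.07e-06). In KO mice the regions overlapped, since cortical library 1 held 3.2 CPM and striatal library 13 held 1.98 CPM, while the other 5 cortical libraries were at 0.0804 to 0.424 CPM. The KO log2 fold change was 4.03 (SE 0.665, adjusted p = 2.67e-05), and 5.57 (adjusted p = 2.94e-07) without library 1. Calcr (chr6:3685678-3764713), the calcitonin receptor, had 1 count in the 6 WT cortical libraries together and 303 in the 7 striatal ones, a ratio of 247 after scaling to the library totals (95% exact interval 44.0 to 9791, counting error only). In KO mice the sums were 1 and 326 counts (ratio 231, interval 41.3 to 9169.7). Per striatal library Calcr had 3 to 84 counts in WT and 3 to 105 in KO mice, a spread that these intervals leave out. Rtl1, a retrotransposon-derived gene on which miRNA genes and Meg3 overlap in RefSeq, was higher in striatum by 2.38 and 2.56 on the log2 scale, from 3 to 11 counts in WT frontal cortex to 10 to 94 in WT striatum. Magel2, a MAGE family gene of the Prader-Willi region, was higher by 2.03 (SE 0.368, adjusted p = 0.00026) in WT and 1.50 (SE 0.482, adjusted p = 0.0165) in KO mice, and its neighbour Mkrn3, a makorin ring finger gene tied to the timing of puberty, by 0.71 and 0.63 (adjusted p = 0.00732 and 0.00454). Asb4, an ankyrin repeat protein gene, was called in WT mice (1.51, SE 0.337, adjusted p = 0.00158) and not in KO mice (0.81, 95% interval -0.15 to 1.77, adjusted p = 0.203). Dio3, the enzyme that inactivates thyroid hormone, Slc22a18 and Airn, the long non-coding RNA antisense to Igf2r, were not called in either genotype, with at most 76, 25 and 22 counts in a library. Phlda2 had 3 counts in the 27 libraries together, so no difference was detectable at this depth.

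The deletion was then compared within each region. In frontal cortex, 26 imprinted genes passed the filter and 0 were called between KO and WT mice, against 0.380% of all 13936 genes tested (53 genes). None of the 26 had an unadjusted p under 0.05, while 1877 of all genes tested did. DESeq2, limma-voom and the likelihood ratio test of edgeR called 0 imprinted genes as well, against 1.74%, 0.416% and 1.66% of all genes. On the log2 scale the 26 differences lay between -0.13 and 0.42, 13 above and 13 below 0, with a median of -0.002 against 0.001 over all genes. The genotypes overlapped for all 26 genes, while 1.29% of all genes tested did not overlap. All 8 oligodendrocyte genes had lower estimates in KO mice (median -0.185, 0 called), and 11 of 12 meningeal fibroblast genes higher ones (median 0.255, 0 called). All 3 tested olfactory bulb genes also had higher estimates in KO mice (median 0.526, 0 called). Of 6 pericyte genes 1 was called, Notch3, which was lower (log2 fold change -0.24, adjusted p = 0.0497) and is named because it was the one marker gene called. In the same libraries Igf2 was at 72.8 ± 19 CPM (SD, n = 6) in WT and 123 ± 27.7 CPM (SD, n = 6) in KO mice, and Igf2r at 45 ± 3.21 and 44.9 ± 2.33 CPM. H19 was at 2 counts or fewer in every cortical library.

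**Figure D3:**
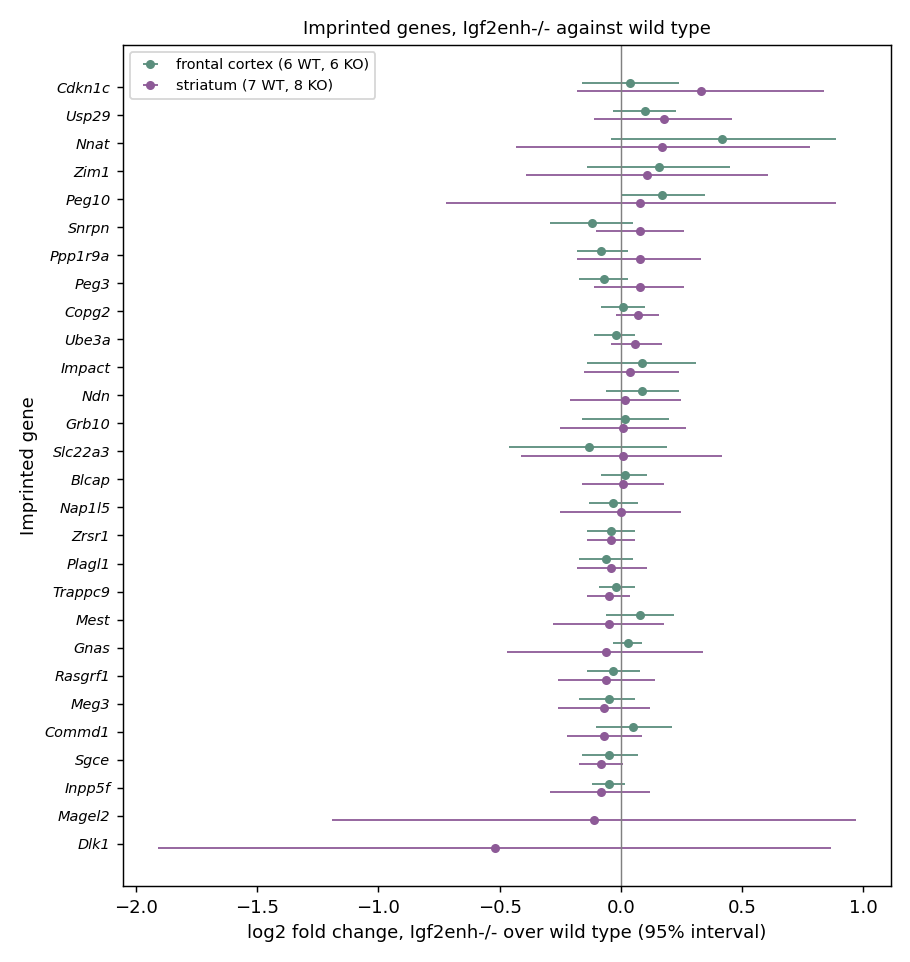
Log2 fold change of the imprinted genes, Igf2enh-/- over wild type, with 95% intervals, in frontal cortex (green, 26 genes) and striatum (purple, 28 genes). Every interval reaches 0, and the intervals are widest for Dlk1, Magel2 and Peg10 in striatum.

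The 6 genes of smallest p in frontal cortex were Peg10, Nnat, Ppp1r9a, Usp29, Snrpn and Inpp5f. Peg10 was at 14.3 to 17.6 CPM (median 15.5) in WT and 15.5 to 21.3 CPM (median 17.1) in KO libraries. The KO range lay slightly higher and overlapped with WT, and the log2 fold change was 0.17 (95% interval 0.00 to 0.35, adjusted p = 0.382), with an exact permutation p of 0.0844 (two-sided, 924 arrangements). Nnat was at 27.1 to 50.5 CPM (median 29.7) in WT and 27.9 to 82 CPM (median 37.3) in KO libraries. Its high values were library 1 at 82 CPM and library 9 at 48.3 CPM among KO, and library 2 at 50.5 CPM among WT mice. The log2 fold change was 0.42 (95% interval -0.04 to 0.89, adjusted p = 0.413), and 0.04 (adjusted p = 0.944) without libraries 1 and 9. Ppp1r9a (278 to 326 CPM in WT, 235 to 311 CPM in KO) differed by -0.08 (95% interval -0.18 to 0.03, adjusted p = 0.512), Usp29 (32.3 to 39.1 CPM, 35.6 to 42.5 CPM) by 0.10 (95% interval -0.03 to 0.23, adjusted p = 0.515) and Snrpn (10 to 12.2 CPM, 8.51 to 11.3 CPM) by -0.12 (95% interval -0.29 to 0.05, adjusted p = 0.522). Inpp5f, at 110.2 to 118 CPM in WT and 104 to 117 CPM in KO libraries, differed by -0.05 (95% interval -0.12 to 0.02, adjusted p = 0.547). None of the 29 genes tested by permutation in frontal cortex had an exact p under 0.05 (smallest possible 0.00216).

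Without the filter on low counts, 4 of the 36 imprinted genes were called in frontal cortex, Dlk1, Dio3, Asb4 and Nnat. All were higher in KO mice, and 1.39% of all 33060 genes in that fit were called. With edgeR's own, milder filter on low counts, 33 imprinted genes were tested and 0 called, against 0.404% of all genes. Dlk1 had 80, 11, 2, 4, 12, 11 counts in KO libraries 1, 3, 5, 7, 9 and 11 and 3 to 7 counts in the WT libraries. Library 1 alone stood above the rest. The log2 fold change was 1.82 (SE 0.438, adjusted p = 0.0113), and 0.51 (adjusted p = 0.787) without library 1. Dio3 had 76, 29, 11, 11, 57, 13 counts in the same KO libraries and 12 to 21 in WT libraries, so libraries 1, 3 and 9 were high. Its log2 fold change was 1.04 (SE 0.283, adjusted p = 0.0375), and 0.06 (adjusted p = 0.96) without libraries 1 and 9. Asb4 had 31, 7, 10, 48, 14, 4 counts against 5 to 12, with libraries 1 and 7 high. It was called with all libraries (1.30, SE 0.355, adjusted p = 0.0362) and without libraries 1 and 9 (1.15, adjusted p = 0.0115), where library 7 was 1 of 4 KO libraries. Nnat had the same estimate in both fits (0.42), with an adjusted p of 0.0257 without and 0.413 with the filter. By exact permutation, with no model of the spread, p was 0.143 for Dlk1, 0.214 for Dio3, 0.165 for Asb4 and 0.199 for Nnat (adjusted p = 0.612 for each of these 4 genes). In striatum the same genes were not called without the filter, and Dlk1 had the other sign (-0.52, 95% interval -1.74 to 0.69, adjusted p = 0.807).

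**Figure D4:**
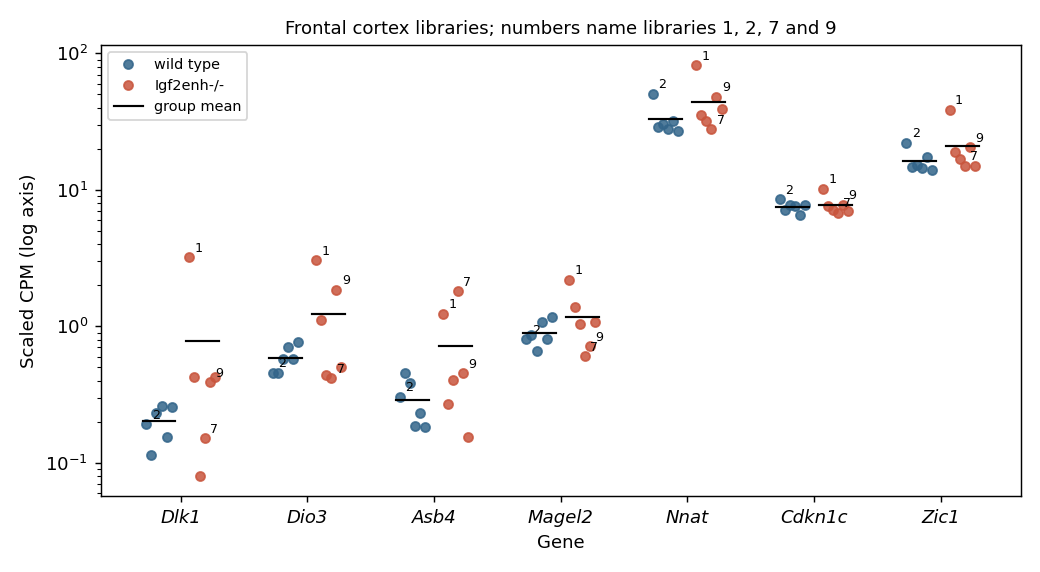
Scaled CPM, on a log axis, of 6 imprinted genes and Zic1 in each frontal cortex library, wild type in blue and Igf2enh-/- in red, with a line at each group mean and the numbers of libraries 1, 2, 7 and 9. Library 1 is the highest for each gene shown except Asb4, which is highest in library 7.

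In striatum, 28 imprinted genes passed the filter, Dlk1 and Magel2 among them, and 0 were called between KO and WT mice, against 0.0360% of all 13875 genes tested (5 genes). No imprinted gene had an unadjusted p under 0.05, while 1395 of all genes tested did. DESeq2, limma-voom and the likelihood ratio test of edgeR called 0 imprinted genes, against 0.807%, 0.0216% and 0.404% of all genes. The genotypes overlapped for all 28 genes, while 0.231% of all genes did not overlap. Of the 28 log2 fold changes 15 were above and 13 below 0, with a median of 0.009 against 0.000 over all genes, and all lay between -0.52 (Dlk1) and 0.33 (Cdkn1c). All 8 oligodendrocyte genes had lower estimates in KO mice (median -0.309, 0 called), as did all 5 tested cortical projection neuron genes (median -0.355, 0 called). All 4 tested choroid plexus genes (median 0.888, highest 2.59, 0 called) and 8 of 9 meningeal fibroblast genes (median 0.132, 0 called) had higher ones. The oligodendrocyte sum was 10568 and 9228 CPM in WT libraries 20 and 22. It was 4841 to 7092 CPM in the other WT libraries and 5026 to 6469 CPM in the KO libraries. Igf2 in these libraries was at 38.2 ± 3.82 CPM (SD, n = 7) in WT and 78.2 ± 73.1 CPM (SD, n = 8) in KO mice, where library 15 alone held 259 CPM and the other 7 libraries 46.0 to 61.7 CPM (52.5 ± 5.57 CPM, SD, n = 7), and Igf2r at 48.4 ± 4.95 and 53.6 ± 3.4 CPM. H19 was at 5 counts or fewer in every striatal library.

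The 6 genes of smallest p in striatum were Sgce, Copg2, Cdkn1c, Ube3a, Usp29 and Trappc9. Sgce was at 28.3 to 34.5 CPM (median 30) in WT and 27.1 to 31.2 CPM (median 29.1) in KO libraries. The KO libraries lay mostly in the lower part of the WT range, and the log2 fold change was -0.08 (95% interval -0.17 to 0.01, adjusted p = 0.545), with an exact permutation p of 0.0977 (6435 arrangements). Copg2, which overlaps Mest on the other strand, was at 64.6 to 80.9 CPM (median 76.9) and 74.6 to 82.7 CPM (median 79.7), a difference of 0.07 (95% interval -0.02 to 0.16, adjusted p = 0.63). Cdkn1c was at 2.68 to 5.41 CPM (median 4.45) in WT and 3.6 to 12 CPM (median 4.51) in KO libraries. The highest KO value was that of library 15, the library with the high choroid plexus sum, and the other KO libraries lay at 3.6 to 6.11 CPM. The log2 fold change was 0.33 (95% interval -0.18 to 0.84, adjusted p = 0.707), and 0.15 (adjusted p = 0.829) without libraries 15, 19, 20 and 26. Ube3a (138 to 172 CPM in WT, 154 to 177 CPM in KO) differed by 0.06 (95% interval -0.04 to 0.17, adjusted p = 0.722), Usp29 (38.3 to 73.1 CPM, 50.3 to 90.6 CPM) by 0.18 (95% interval -0.11 to 0.46, adjusted p = 0.722) and Trappc9 (58.4 to 66.5 CPM, 55.2 to 67 CPM) by -0.05 (95% interval -0.14 to 0.04, adjusted p = 0.768). The width of the intervals differed widely between genes. For Zrsr1 the interval was -0.14 to 0.06 in striatum and -0.14 to 0.06 in frontal cortex, and for Grb10 it was -0.25 to 0.27 and -0.16 to 0.20. For Peg10 and Dlk1 in striatum it spanned -0.72 to 0.89 and -1.91 to 0.87, so that only large changes of these 2 genes could have been called at this spread.

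Several imprinted genes varied more among striatal libraries than between the genotypes. The SD within groups (log2 scale) had a median of 0.218 over the 28 genes in striatum, against 0.133 over all genes tested, and 8 of the 28 genes lay above the 90th percentile of all genes. In frontal cortex the medians were 0.11 and 0.097, and 4 of 26 genes lay above the 90th percentile. The widest was Dlk1 in striatum, with an SD of 1.43 on the log2 scale. It was lowest in library 13 at 1.98 CPM and highest in library 19 at 46.8 CPM, while WT library 26 held 40.9 CPM and WT libraries 20 and 22 held 2.25 and 2.09 CPM. Peg10 was at 150.4 CPM in library 19 and 95.1 CPM in library 26 against 21.6 and 23.7 CPM in libraries 20 and 22. Magel2 was at 14.7 and 9.62 CPM in libraries 19 and 26 and at 1.42 to 3.64 CPM in the other 13 striatal libraries. Zim1 was at 12.8 and 8.89 CPM in these libraries and at 3.64 to 5.79 CPM in the others. Libraries 19 and 26 were the 2 highest for Dlk1, Peg10, Nnat, Magel2, Zim1 and Usp29, and also for Zic1.

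**Figure D5:**
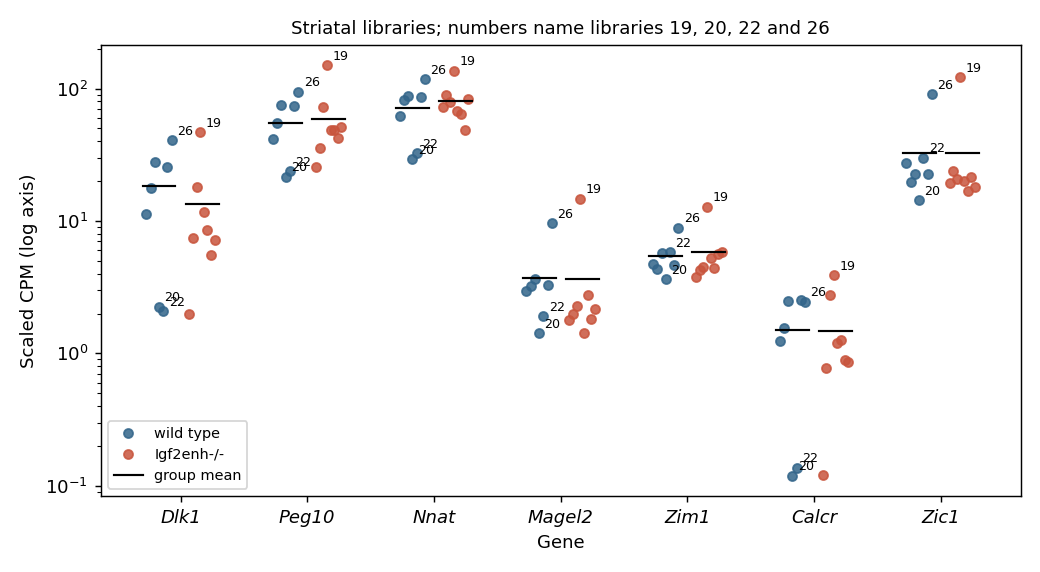
Scaled CPM, on a log axis, of 6 imprinted genes and Zic1 in each striatal library, wild type in blue and Igf2enh-/- in red, with a line at each group mean and the numbers of libraries 19, 20, 22 and 26. Library 19 is the highest for each gene shown, and libraries 20 and 22 are among the 3 lowest for Dlk1, Peg10, Nnat and Calcr.

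Counted over the 28 tested genes, library 19 was the highest striatal library for 13 imprinted genes (Peg3, Usp29, Zim1, Dlk1, Ndn, Magel2, Nnat, Blcap, Peg10, Grb10, Impact, Nap1l5 and Trappc9), while it was the highest for 8.27% of all genes tested. Library 20 was the lowest for 13 (Usp29, Zim1, Ndn, Ube3a, Nnat, Blcap, Peg10, Ppp1r9a, Copg2, Grb10, Impact, Inpp5f and Slc22a3) and for 23.3% of all genes. In frontal cortex, library 1 was the highest for 11 of 26 (Usp29, Zim1, Meg3, Ndn, Nnat, Blcap, Peg10, Mest, Grb10, Cdkn1c and Nap1l5) and for 17.6% of all genes. The genes of one list share each library, so these counts describe libraries and are no test. Without libraries 19 and 26, Peg10 differed between the genotypes in striatum by -0.06 (adjusted p = 0.966), Magel2 by -0.42 (adjusted p = 0.559) and Dlk1 by -0.72 (adjusted p = 0.744). Between the regions, Peg10 in WT mice differed by 1.76 (adjusted p = 3.9e-05) without libraries 20 and 26 and in KO mice by 1.48 (adjusted p = 0.000147) without libraries 1, 9, 15 and 19.

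Whether the deletion had a different effect by region or by sex was tested with interaction terms. No imprinted gene was called for the region by genotype term among 26 tested, where 0% of all 13414 genes were called, 0 of the 26 had an unadjusted p under 0.05, and 405 of all genes did. The likelihood ratio test of edgeR called 0 imprinted genes for this term and for each term of sex below. It called 0% of all genes for this term and at most 0.201% for a term of sex. For sex (male over female), 0 imprinted genes were called in frontal cortex (0.0431% of all genes) and 0 in striatum (0.0432%). The smallest unadjusted p-values were those of Ppp1r9a in frontal cortex (0.15, 95% interval 0.04 to 0.25, adjusted p = 0.55) and Plagl1 in striatum (0.18, 95% interval 0.03 to 0.32, adjusted p = 0.448). An unadjusted p under 0.05 was found for 2 imprinted genes in frontal cortex and 3 in striatum, beside 1054 of all 13936 and 1496 of all 13875 genes. For the sex by genotype term, 0 were called in frontal cortex (0.0215% of all genes, 3 imprinted genes with an unadjusted p under 0.05) and 0 in striatum (0% of all genes, 0 imprinted genes under 0.05). Of all genes, 887 in frontal cortex and 355 in striatum had an unadjusted p under 0.05 for this term. Impact was the only imprinted gene called for this term in a fit without the filter, with an estimate of -0.43 in both fits and an adjusted p of 5.06e-05 without and 0.763 with it. Its KO females were at 350.2, 406 and 247 CPM and its KO males at 263, 275 and 264 CPM, while WT females were at 297, 259 and 258 and WT males at 319, 266 and 289 CPM. The high values were those of KO libraries 1 and 3, and the third KO female was the lowest of the 12.

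The machinery that sets and reads imprints, and imprinted genes outside the list, gave the wider context. Of 21 regulators (DNA methyltransferases, TET dioxygenases, KRAB zinc finger proteins and their partners), 17 were tested and 0 were called for genotype in either region. An unadjusted p under 0.05 was found for 2 regulators in frontal cortex and 4 in striatum, beside 1877 of all 13936 and 1395 of all 13875 genes. The smallest p-values were those of Ehmt2, a histone H3 lysine 9 methyltransferase, in striatum (-0.11, adjusted p = 0.29) and Tet3 in frontal cortex (-0.24, adjusted p = 0.261). Between the regions in WT mice, 12 of the 17 were called as higher and 2 as lower in striatum, led by Dnmt3a, a de novo DNA methyltransferase (0.58, adjusted p = 1.11e-07), Tet1 (0.61, adjusted p = 1.89e-06) Tet2 (0.36, adjusted p = 5.99e-06) and Arid4b, a chromatin protein gene (0.24, adjusted p = 2.61e-05). In KO mice 11 were called as higher and 2 as lower. Over all genes 33.8% were called as higher and 31.6% as lower in WT mice, and 34.0% and 34.1% in KO mice. Of 38 matched further imprinted genes, 24 were tested in frontal cortex and 25 in striatum, and 0 were called for genotype. An unadjusted p under 0.05 was found for 4 in frontal cortex and 2 in striatum, beside the same counts over all genes. Between the regions in WT mice, 6 of 24 were called as higher and 10 as lower in striatum, among them Herc3, the host gene of Nap1l5 (-1.40, adjusted p = 5.11e-07), Ddc, the last enzyme of dopamine synthesis (1.15, adjusted p = 2.31e-06), Cobl, an actin nucleator gene (-0.59, adjusted p = 1.1e-05) and Kcnk9, a potassium channel (-1.12, adjusted p = 1.81e-05). These 16 calls of 24 were a share near the 65.4% called over all genes.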

How the data were processed

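RNA from frontal cortex (12 libraries) and striatum (15 libraries) was made into ribosomal-depleted libraries and sequenced as 75 bp single reads. Per the labels, the authors removed adapters with Trim Galore 0.5.0 before STAR alignment to GRCm38. The deposited values are raw counts per gene for each library, with no normalization by the authors and no allele information, and the strand setting of the counting is not given in the sources used here. Identifiers were paired with symbols through a gene name table, which matched 32688 of 52636. The 40 imprinted genes and the other lists were chosen with earlier results of these data known, and the symbols alone set membership.

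Genes that reached 1 CPM in all libraries of a comparison were tested with edgeR 4.0.16 (R 4.3.3), using TMM scaling, the quasi-likelihood F test and a term for sex, and p-values were adjusted by Benjamini and Hochberg over all genes tested. A gene was called at an adjusted p under 0.05. Levels are CPM scaled jointly by TMM over all 27 libraries, and levels per kb use annotated exon length. Exact two-sided permutation tests of genotype used log2(CPM + 0.5). The fits were tested on simulated counts. The alternatives were DESeq2 1.42.0, limma 3.58.1 (voom), edgeR's likelihood ratio test, and other scalings and filters. Terms for the RNA integrity number and for the trimming record, and leaving out libraries, were alternatives too. The sets of libraries that stood apart were chosen after the values were seen. The term for the trimming record was fitted only for genotype in striatum, where 0 of 28 imprinted genes were called, against 0.036% of all genes. Genes were named in full where they were called for genotype under any alternative, had one of the 6 smallest genotype p-values in a region, or had one of the 10 largest called differences between regions in WT mice. Genes under the filter were described by counts. Precision is limited by the spread between libraries and, for genes of few counts, by counting error, which alone the Calcr intervals cover.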

Additional observations from a re-analysis of the deposited data

Results flagged for a closer look

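In each group of 6 to 8 libraries, the level of each imprinted gene (log2 scale) was checked for 1 library far from the others by Dixon's criterion at 95%, over 136 gene and group combinations. About 1 in 20 would be expected if the combinations were independent, and 17 were found. The genes share libraries, so the combinations are not independent and this count is no test. In KO striatum, library 19 was far above the other 7 libraries for 8 genes. Its levels were 90.6 CPM for Usp29 (50.3 to 65.8 CPM in the others), 12.8 CPM for Zim1 (3.8 to 5.79), 233 CPM for Ndn (145 to 179.6), 14.7 CPM for Magel2 (1.42 to 2.76), 78.5 CPM for Blcap (58.4 to 65.8), 3.87 CPM for Asb4 (0.539 to 1.49), 83.7 CPM for Grb10 (52.8 to 60.4) and 362 CPM for Nap1l5 (193 to 251). The same library held Zic1 at 122 CPM, and the part of this in the levels was not tested.

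In WT striatum, Peg3 was at 466 CPM in library 26, with the others at 349 to 391 CPM, and Mkrn3 was at 1.91 CPM in library 22 against 1.03 to 1.34 CPM. In KO striatum, library 15 held Cdkn1c at 12.0 CPM (3.6 to 6.11 CPM in the others) and Slc22a18 at 0.917 CPM (0.149 to 0.423 CPM), beside a summed choroid plexus level of 4688 CPM. In KO frontal cortex, library 1 held Dlk1 at 3.2 CPM (0.0804 to 0.424 CPM in the others) and Cdkn1c at 10.2 CPM (6.82 to 7.79 CPM), and it was the lowest for Ppp1r9a at 235 CPM (286 to 311 CPM). In WT frontal cortex, library 2 held Nnat at 50.5 CPM (27.1 to 32.1 CPM in the others) and Slc22a18 at 0.534 CPM (0.222 to 0.31 CPM).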

How the results depend on the processing

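Of the recomputed counts of called imprinted genes, 187 stayed within 1.5 times the reported count. The 5 others were 4 calls for genotype in frontal cortex with no filter on low counts, 2 with no filter and without library 1, 1 with no filter and without libraries 1 and 9, 1 call (Impact) for the sex by genotype term in frontal cortex with no filter, and 10 calls for region in WT mice with the RNA integrity number. Leaving out 1 library at a time gave 0 to 0 calls for genotype, sex and both interaction terms, and 18 to 21 for region in either genotype. Calls for region lost on leaving out 1 library were those of Mest (10 of 14 fits) and Ndn (7 of 14 fits) in KO mice and of Peg3 in WT mice (without library 10 or 18). Calls gained were Copg2 (without library 8 or 20), Ube3a (20) and Impact (26) in WT mice, and Cdkn1c (15 or 23) and Impact (19) in KO mice.

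Of the single-gene differences (log2 scale), 27 changed sign, none of which was called in the reported fit. Cdkn1c for genotype in frontal cortex was -0.08 without libraries 1 and 9, with or without the filter, and -0.04 without library 1 and the filter (leaving out 1 library, -0.04 to 0.08). The ranges on leaving out 1 library were -0.01 to 0.04 for Copg2 and -0.03 to 0.00 for Trappc9. They were -0.08 to 0.06 for Grb10, -0.02 to 0.04 for Blcap and -0.01 to 0.15 for Impact. For genotype in striatum such ranges also crossed 0 for Magel2 (-0.85 to 0.26), Zim1 (-0.15 to 0.24) and Gnas (-0.16 to 0.03). Others were those of Slc22a3 (-0.09 to 0.14), Nap1l5 (-0.12 to 0.03) and Grb10 (-0.08 to 0.07). Ndn (-0.08 to 0.05), Blcap (-0.04 to 0.05) and Impact (-0.03 to 0.08) crossed 0 as well. Genotype differences in striatum were -0.01 for Nnat without libraries 15, 19, 20 and 26, and for Peg10 -0.01 with the RNA integrity number, -0.06 without libraries 19 and 26 and -0.16 without libraries 15, 19, 20 and 26 (leaving out 1 library, -0.25 without library 19 to 0.25 without library 26). Between the regions in WT mice, Mest was 0.08 with the RNA integrity number, and Meg3 0.27 with it and 0.02 with scaling by total count (leaving out 1 library, -0.06 to 0.03). In KO mice Meg3 was 0.04 with the RNA integrity number and 0.02 without library 1 and the filter (leaving out 1 library, -0.07 to 0.01). The cause was not tested. No paired analysis was possible because the library numbers are unique and no label ties a cortical to a striatal library. At these depths differences of Phlda2 could not be resolved.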
